A study of Rattus norvegicus with 6 samples.

Results

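Intraflagellar transport genes, BBSome genes and genes for centrosomal and transition zone proteins build and service the cilium, and they were compared between the ovaries of lean and overfed rats. The set comprised each gene whose current symbol starts with Ift, Bbs, Tctn, Nphp or Cep followed by a digit, and the values of all single-gene probe sets of a gene were averaged. This gave 58 genes measured by 86 probe sets, out of 14217 named genes: 17 Ift, 7 Bbs, 2 Tctn, 1 Nphp and 31 Cep genes. RefSeq lists 73 protein-coding rat genes with such symbols. Those without a single-gene probe set, and 3 probe sets shared with a second gene, were not used here.

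Ovaries came from female rats on total enteral nutrition, a liquid diet infused by tube. For 28 days lean rats received 155 kcal and overfed rats 220 kcal, each per kg metabolic body weight. Rats of both groups were mated with lean males, and their ovaries were frozen 4.5 days after mating. RNA was hybridized to 6 Affymetrix arrays, 1 pool per array, with 3 lean and 3 overfed pools. The labels used here give no strain, age or number of animals per pool, so p-values measure the spread between pools. Each value is a logarithm, taken here as log2, centred on the median of that probe set in the 6 pools, so pools can be compared for a gene but the level of a gene, and with it the presence of any ovarian marker, is unknown. Because that median is 0, the 2 middle values of a probe set lie equally far above and below 0. Among array controls, lean pool 3 stood apart with a mean of 0.51 over 18 hybridization controls, against -0.24 to 0.045 in the other pools, and overfed pool 1 had the widest spread over probe sets (SD 0.29, against 0.14 to 0.24).

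A cilium is a microtubule-based projection that grows from a basal body, which is a modified centriole. Proteins travel along it by intraflagellar transport (IFT): trains of the IFT-B complex, drawn by kinesin-II, carry cargo to the tip, and the IFT-A complex with dynein-2 serves the return journey. The BBSome, a coat-like complex, rides on these trains and moves membrane proteins out of the cilium, while tectonic and nephrocystin proteins sit at the transition zone, the gate at its base. Many Cep proteins serve centrioles in dividing cells as well as basal bodies. Solitary primary cilia occur on many ovarian cells, whereas the multiciliated cells of the adjoining oviduct, under the transcription factor Foxj1, carry many motile cilia and use the same transport machinery.

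RFX transcription factors, which act with Foxj1 in ciliated cells, bind the X-box in promoters of cilium genes. Promoters of 4 members described below are shown so that matches to a part of this motif can be seen beside the values. The 100-base stretches run from 90 bases before the transcript start to 10 bases after it. They are read 5′ to 3′ on the gene's strand, from RefSeq, build GRCr8. Capitals mark GTTGCC, which is only a part of the X-box, or its reverse complement. Whole X-boxes were not searched for. The stretches are chr12:39618532-39618631 (plus strand) for Ift81, chr15:35688897-35688996 (plus strand) for Ift88, chr3:74818550-74818649 (plus strand) for Bbs5 and chr2:121402464-121402563 (minus strand) for Bbs7.
Ift81: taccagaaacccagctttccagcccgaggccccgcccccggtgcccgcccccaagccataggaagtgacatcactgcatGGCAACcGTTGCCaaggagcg
Ift88: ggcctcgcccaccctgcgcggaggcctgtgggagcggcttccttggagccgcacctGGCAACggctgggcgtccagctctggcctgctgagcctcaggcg
Bbs5: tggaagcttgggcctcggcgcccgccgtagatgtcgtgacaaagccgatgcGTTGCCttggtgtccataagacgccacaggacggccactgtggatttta
Bbs7: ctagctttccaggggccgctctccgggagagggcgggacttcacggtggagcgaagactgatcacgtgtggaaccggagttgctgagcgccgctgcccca

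Ift81 held GTTGCC on both strands, at positions -11 and -4 from the start, 1 base apart. Ift88 held 1 at -34 and Bbs5 1 at -39, and Bbs7 held none in the stretch. Promoter windows of 300 bases (250 before the start and 50 after) were found for 52 of the 58 members. Searched on both strands, GTTGCC occurred in 16 of the 52 (30.8%), against 12.2% of 27457 rat promoters, and in 4 of 13 Ift, 3 of 7 Bbs and 6 of 29 Cep promoters. The median GC content was 58.7% in the members' windows and 52.3% in all of them. The forkhead core TGTTTA, searched on both strands, was in 6 of the 52 (11.5%), against 13.7%. These matches describe letters in a window, with no test.

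The comparison asks how cilium genes differ between overfed and lean ovaries. Transport genes had lower values in the overfed pools. The difference, overfed minus lean, was below 0 in 16 of 17 Ift genes and 6 of 7 Bbs genes, against 45.8% of all 24433 features tested and 47.4% of the 14217 genes among them. The medians of the 2 families were -0.26 and -0.21, or 1.20-fold and 1.16-fold higher in lean pools. Cep genes were spread around 0, with 13 below and 18 above and a median of 0.03. Over all 58 genes the median was -0.08, against 0.013 over all features. No single gene passed the test adjusted over all features: limma's Benjamini-Hochberg adjusted p was under 0.05 in 0 of 58 members and in 0 of 24433 features (0.0%), of which 1716 had an unadjusted p under 0.05, and the smallest in the members was 0.562.

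At an unadjusted p under 0.05, 14 of the 58 members were lower in overfed pools (24.1%), where 3.63% of all features and 4.38% of all genes were. In the other direction 1 was higher, where 3.39% of features and 2.53% of genes were. The 14 were 10 Ift genes, 2 Bbs genes and 2 Cep genes. The groups did not overlap in 16 members that were lower in overfed pools, against 5.61% of all features and 6.35% of all genes, and in 5 that were higher, against 7.46% and 7.09%. All 5 were Cep genes. The count of 14 depended on the pools: leaving out 1 lean pool gave 7 (pool 1), 16 (pool 2) or 6 (pool 3), and leaving out 1 overfed pool gave 4, 17 or 9 in the same order, fits with fewer samples. When lean pool 3 was dropped along with overfed pool 1 the count was 2. In that fit the Ift median was -0.13 and the Bbs median -0.085.

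**Figure D1:**
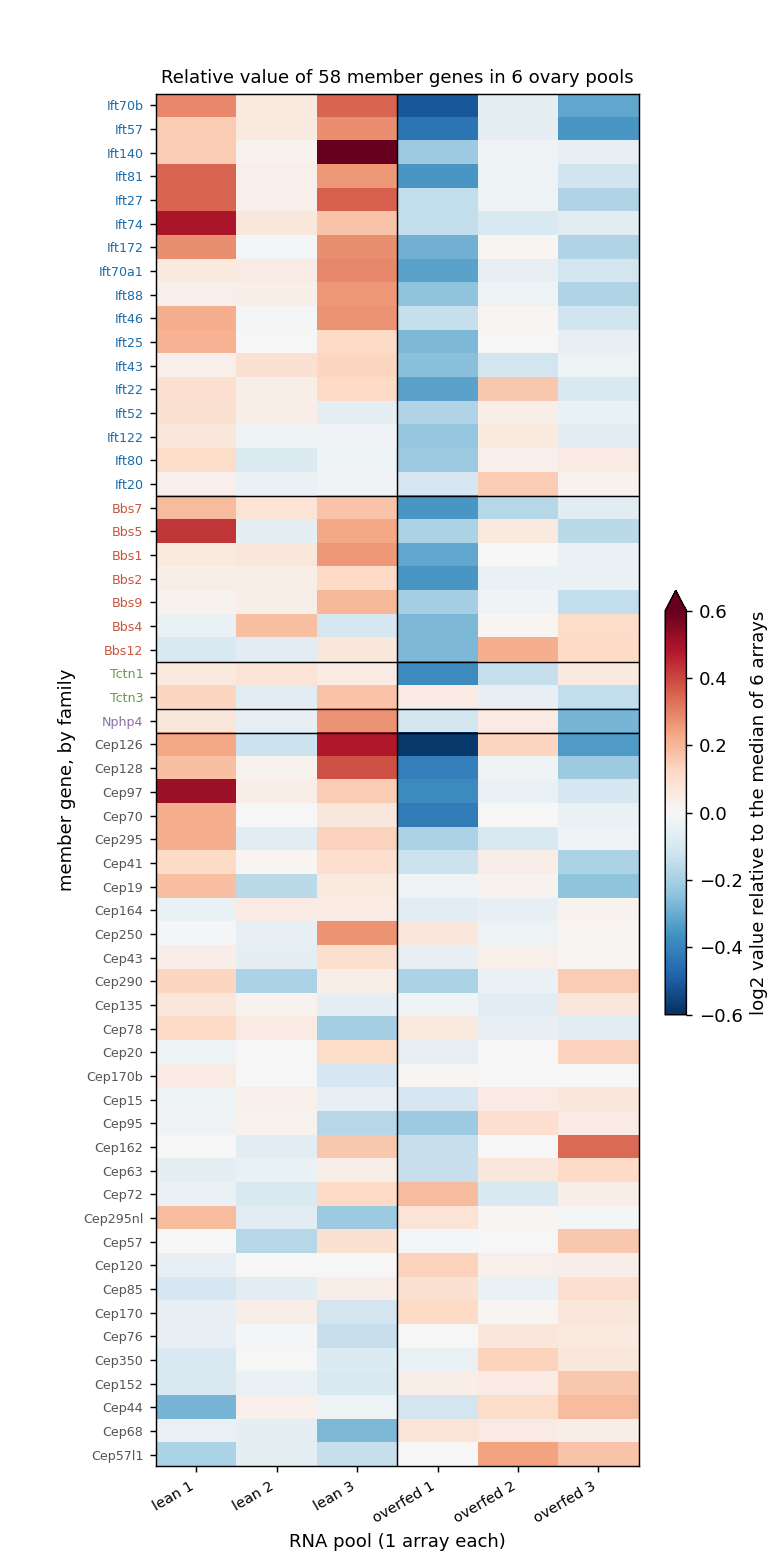
Heat map of the 58 member genes (rows, grouped by family and ordered by difference) in the 6 pools (columns), coloured by log2 value relative to the median of the 6 arrays. Most Ift rows are red in lean pools 1 and 3, the Ift and Bbs rows are blue in overfed pool 1, and most rows are pale in lean pool 2 and overfed pool 2. Ift140 in lean pool 3 (0.72) lies beyond the colour scale.

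The difference was carried unequally by the pools. Overfed pool 1 held the lowest of the 6 values in 36 of 58 members, against 20.1% of all features and 22.1% of all genes, and in 16 of 17 Ift and 7 of 7 Bbs genes. Lean pool 1 or lean pool 3 held the highest in 36 members, against 30.1% and 31.3%. Medians over Ift genes were 0.15, 0.03 and 0.26 for the lean and -0.24, -0.02 and -0.09 for the overfed pools, in the order 1 to 3 that all values below follow. Lean pool 2 and overfed pool 2 thus lay side by side near 0, and in 9 of the 16 lower members without overlap these were the lowest lean pool and the highest overfed pool.

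In IFT-B, the anterograde train, 13 of 14 measured genes with an Ift symbol were below 0. Of the 14, 9 were lower at an unadjusted p under 0.05 (64.3%, against 3.63% of all features and 4.38% of all genes). Ift70b, a subunit of the train's core, had values of 0.29, 0.06 and 0.35 in lean and -0.51, -0.06 and -0.31 in overfed pools. The groups did not overlap, with lean pool 2 and overfed pool 2 closest to each other. Its difference of -0.52 (SE 0.14, 1.44-fold higher in lean) had an unadjusted p of 0.00655 and a limma adjusted p of 0.562, and ranged from -0.64 to -0.42 with 1 pool left out. Ift70a1, its close paralog, had 0.06, 0.05 and 0.29 in lean and -0.32, -0.05 and -0.11 in overfed pools. Its difference was -0.29 (SE 0.11, unadjusted p = 0.033), and probes of such similar genes may share signal. Ift57, a peripheral IFT-B subunit on the kinesin side of the train, had 0.15, 0.06 and 0.28 in lean and -0.44, -0.06 and -0.35 in overfed pools. Overfed pools 1 and 3 were well below the lean range, and the difference was -0.44 (SE 0.12, unadjusted p = 0.00786).

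Ift81 and Ift74 form the heterodimer that binds tubulin cargo. Ift81, whose promoter above carries GTTGCC on both strands, had 0.35, 0.03 and 0.26 in lean and -0.35, -0.03 and -0.12 in overfed pools. Ift74 had 0.49, 0.07 and 0.17 in lean and -0.15, -0.09 and -0.07 in overfed pools. Neither overlapped between groups, and lean pool 1 was the highest pool for both. Their differences were -0.38 (SE 0.12, unadjusted p = 0.0176) and -0.35 (SE 0.12, unadjusted p = 0.0218). Without lean pool 1 the difference of Ift74 was -0.23. The 3 probe sets of Ift81 had differences of -0.28, -0.29 and -0.56.

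Ift27, a Rab-like GTPase, pairs with Ift25 on the train and serves BBSome exit from the cilium. It had 0.35, 0.03 and 0.36 in lean and -0.15, -0.03 and -0.18 in overfed pools, a difference of -0.37 (SE 0.11, unadjusted p = 0.0141) without overlap. Ift25 had a difference of -0.22 (SE 0.10, unadjusted p = 0.0742), the mean of 3 probe sets at -0.45, -0.21 and 0.01. The probe sets of Ift25 therefore disagreed by more than the size of their mean.

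Further IFT-B members past the unadjusted threshold were the peripheral subunit Ift172 (-0.34, SE 0.12) and the core subunits Ift88 (-0.26, SE 0.10) and Ift46 (-0.25, SE 0.099). Ift88, the subunit mutated in the classic mouse model of defective cilia, had 0.03, 0.04 and 0.26 in lean and -0.24, -0.03 and -0.18 in overfed pools, with no overlap. Ift172 and Ift46 overlapped between groups by the middle pair, lean pool 2 (-0.01 in both) and overfed pool 2 (0.01 in both). The remaining IFT-B members lay closer to 0. The Rab-like GTPase Ift22 was at -0.17, the mean of probe sets at -0.33, without overlap, and -0.01. Ift52 was at -0.09 and the peripheral subunits Ift80 and Ift20 at -0.05 and 0.03. Ift20, which also acts at the Golgi apparatus, had 0.03, -0.04 and -0.02 in lean and -0.10, 0.15 and 0.02 in overfed pools, and the 95% interval of its difference ran from -0.18 to 0.24.

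In IFT-A, the return complex, 3 of 3 measured members were below 0. Of these, 1 was lower at an unadjusted p under 0.05 (33.3%, against 3.63% of all features). Ift140, a scaffold subunit, had 0.15, 0.02 and 0.72 in lean and -0.22, -0.02 and -0.05 in overfed pools. Its groups did not overlap, but lean pool 3 stood far above the other lean pools, and the difference of -0.40 (SE 0.18) had an unadjusted p of 0.0655. Without lean pool 3 the difference of Ift140 was -0.19, and without overfed pool 1 as well it was -0.12. Ift43, the small IFT-A subunit, had 0.03, 0.09 and 0.13 in lean and -0.25, -0.11 and -0.03 in overfed pools, a difference of -0.21 (SE 0.086, unadjusted p = 0.0436). Ift122 was at -0.08 (SE 0.095), with probe sets at -0.22 and 0.05.

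Among 6 measured BBSome subunits with a Bbs symbol, 6 were below 0. Of these, 4 did not overlap between groups (66.7%, against 5.61% of all features). The BBSome genes Bbip1 (-0.12) and Ttc8 (0.02), measured under other symbols, overlapped between groups. Bbs7, a beta-propeller subunit of the core, had 0.19, 0.08 and 0.17 in lean and -0.35, -0.17 and -0.07 in overfed pools. Its 2 probe sets agreed (-0.37 and -0.32), and its mean difference was -0.34 (SE 0.096, 1.27-fold higher in lean, unadjusted p = 0.00885, limma adjusted p = 0.562). Lean values of Bbs7 lay closer together (SD 0.06) than overfed ones (SD 0.14). Without lean pool 3 and overfed pool 1 the difference of Bbs7 was -0.25.

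Bbs9, which bridges the core, had 0.02, 0.04 and 0.20 in lean and -0.20, -0.02 and -0.15 in overfed pools (difference -0.21, SE 0.089, unadjusted p = 0.0473). Bbs1, the subunit that binds the GTPase Arl6, was at -0.25 and Bbs2 at -0.21, both without overlap. Bbs5, which binds phosphoinositides, had 0.43, -0.06 and 0.23 in lean and -0.19, 0.06 and -0.16 in overfed pools, so its groups overlapped by lean pool 2, and its difference was -0.29 (SE 0.14, unadjusted p = 0.0736). Leaving out overfed pool 1 gave -0.15 for Bbs1, and leaving out lean pool 1 gave -0.18 for Bbs5. Bbs4 was at -0.06 (SE 0.13) and Bbs12, a chaperonin-like assembly factor that is no BBSome subunit, at 0.05 (SE 0.14). In overfed pool 1, Bbs4 and Bbs12 were both at -0.27, their lowest value.

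At the transition zone, the tectonics Tctn1 and Tctn3 were at -0.22 (SE 0.12) and -0.12 (SE 0.097) and the nephrocystin Nphp4 at -0.21 (SE 0.12), and their groups overlapped. Of the 2 probe sets of Tctn1, 1 was at -0.34, without overlap, and 1 at -0.10, with overlap. Tctn1 was at -0.11 without overfed pool 1, and Nphp4 at -0.13 without lean pool 3 or without overfed pool 3. Cep290, the protein that links microtubules to the membrane there, had 0.13, -0.19 and 0.04 in lean and -0.19, -0.04 and 0.15 in overfed pools. Its difference was -0.02, with a 95% interval from -0.31 to 0.27, and no separation of the groups was visible. Cep162, another transition zone protein, was at 0.04 (SE 0.14), and Cep164, which docks the basal body to the membrane, at -0.06 (SE 0.073).

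**Figure D2:**
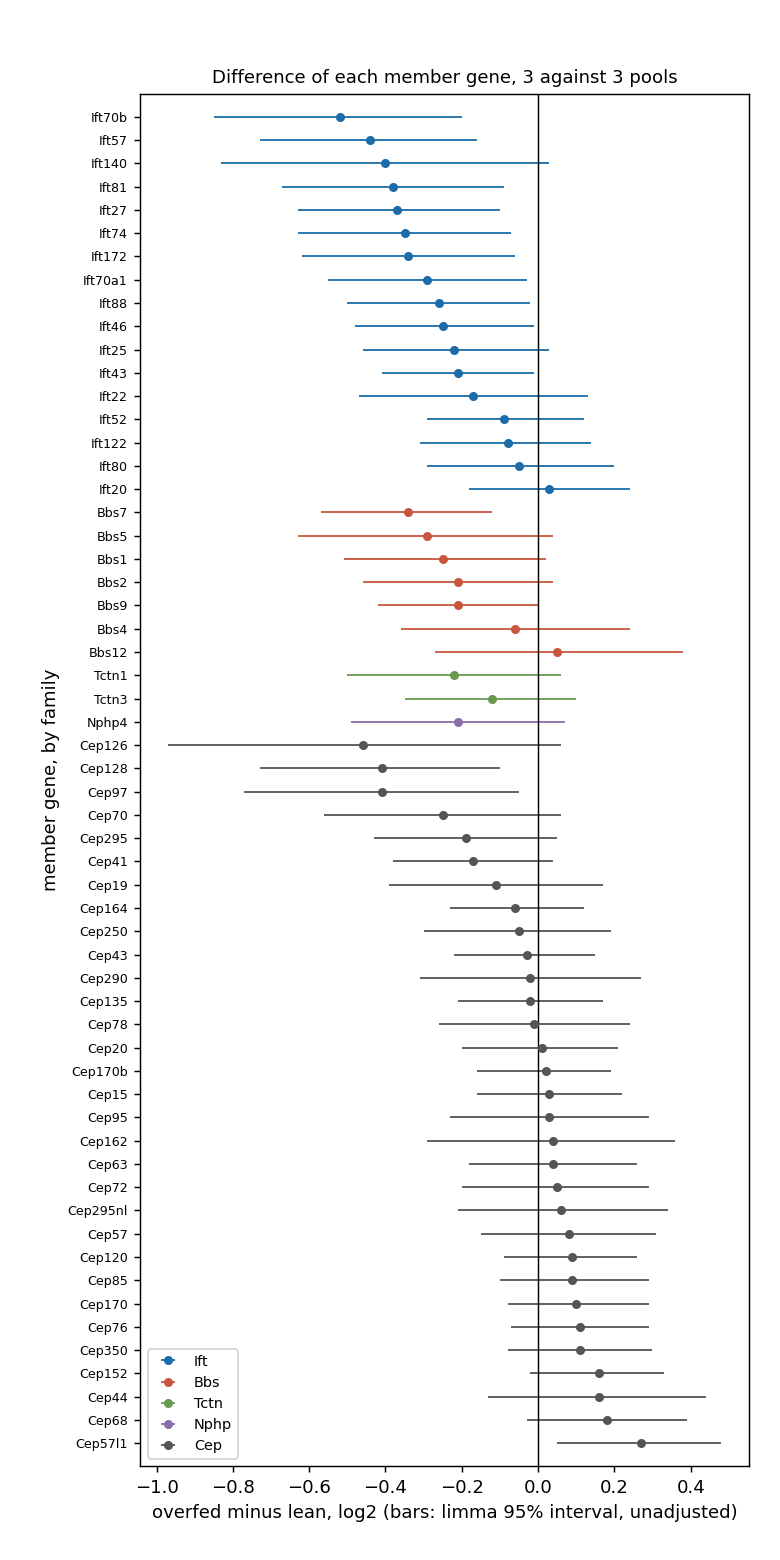
Difference of each member gene (overfed minus lean, log2) with limma's unadjusted 95% interval, ordered within families, from 3 lean and 3 overfed pools. The Ift and Bbs points lie left of 0 except Ift20 (0.03) and Bbs12 (0.05), while Cep points run from -0.46 to 0.27.

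The Cep family spanned both directions. The difference lay between -0.1 and 0.1 in 17 of 31 genes. At an unadjusted p under 0.05, 2 of the 31 were lower (6.45%), near the 3.63% of all features and 4.38% of all genes. In the other direction, 1 of them was higher. Cep128, a protein of the subdistal appendages of the mother centriole, had 0.18, 0.02 and 0.38 in lean and -0.41, -0.02 and -0.22 in overfed pools. Its order of pools was that of Ift70b, and its difference was -0.41 (SE 0.13, unadjusted p = 0.0176). Cep97, which with Ccp110 caps centrioles and holds back cilium growth, had 0.52, 0.04 and 0.15 in lean and -0.38, -0.04 and -0.10 in overfed pools. Its difference was -0.41 (SE 0.15, unadjusted p = 0.031), without overlap, and -0.27 without lean pool 1.

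The lowest Cep difference was that of Cep126, a microtubule-binding protein of the basal body, with 0.23, -0.13 and 0.48 in lean and -0.58, 0.13 and -0.34 in overfed pools. Its groups overlapped by the pools numbered 2, and the difference of -0.46 (SE 0.22) had an unadjusted p of 0.0732. It was -0.30 without overfed pool 1 and -0.16 with lean pool 3 left out too. Below -0.1 were also Cep70 (-0.25), Cep295 (-0.19), Cep41 (-0.17), which promotes tubulin glutamylation in cilia, and Cep19 (-0.11). The mean of Cep295, a protein of centriole maturation, hid a disagreement. Of its 5 probe sets 4 were at -0.26 to -0.35 and 1 at 0.29, the last without overlap between groups (unadjusted p = 0.00998). Of the 19 members with several probe sets, all probe sets lay on 1 side of 0 in 13 and on both sides in 6.

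In the other direction, 1 of the 31 Cep genes had an unadjusted p under 0.05, a share near that of all features (3.39%) and all genes (2.53%). It was Cep57l1, a paralog of the centrosomal protein Cep57. Cep57l1 had -0.19, -0.06 and -0.14 in lean and 0.00, 0.24 and 0.17 in overfed pools. Its groups did not overlap, and the difference of 0.27 (SE 0.09, 1.20-fold higher in overfed) had an unadjusted p of 0.021 and a limma adjusted p of 0.626. Without lean pool 1, overfed pool 2 or overfed pool 3 the unadjusted p of Cep57l1 was 0.0678, 0.0748 and 0.0593, and with 1 representative probe set it was 0.143.

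The other Cep genes above 0 did not pass the unadjusted threshold. Cep152, the scaffold that recruits the kinase Plk4 to start centriole duplication, had -0.09, -0.04 and -0.09 in lean and 0.04, 0.05 and 0.16 in overfed pools. Its difference was 0.16 (SE 0.075, unadjusted p = 0.0768). Cep68, part of the linker between centrosomes, was at 0.18 (SE 0.087), Cep76 at 0.11 and Cep120 at 0.09, and their groups did not overlap. The 3 probe sets of Cep76 were at 0.25, 0.13 and -0.06. Taken singly, both probe sets of Cep120 (0.14 and 0.03) overlapped between groups. Cep44, a protein of centriole maturation, was at 0.16 (SE 0.12) with overlap. Cep68 was at 0.11 without lean pool 3, and Cep44 at 0.064 without lean pool 1 and at 0.093 without overfed pool 3. Of 12 mitotic markers, 11 were above 0, with means of -0.16 to -0.06 in lean and 0.08 to 0.12 in overfed pools. At an unadjusted p under 0.05 in limma, 5 of the 12 were higher, where 3.39% of all features and 2.53% of all genes were. Bub1b (0.45) and Ccnb2 (0.32) had the lowest p-values among them. The part of these dividing-cell genes in the Cep values was not tested.

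The same machinery outside these symbols was measured in the same pools through 14 further IFT and motor genes. Their list was written with earlier results of these data known, so it is no independent support. Of the 14, 14 were below 0 (median -0.30) and 9 had an unadjusted p under 0.05 (64.3%, against 3.63% of all features). Traf3ip1, which encodes the IFT-B subunit IFT54, was at -0.70 (SE 0.16, unadjusted p = 0.0032), the dynein-2 light chain gene Dynlt2b at -0.54 (SE 0.12) and the IFT-A gene Wdr19 at -0.47 (SE 0.13). The kinesin-II genes Kif3a (-0.08), Kif3b (-0.02) and Kifap3 (-0.01), picked after their values were seen, overlapped between groups and lay near 0. Of 10 further BBSome genes and partners, 7 were below 0 (median -0.07), led by Arl6 (-0.39), Lztfl1 (-0.27) and Bbip1 (-0.12). Arl6, the GTPase that recruits the BBSome to membranes, had an unadjusted p of 0.0169 and was the 1 gene of this list under 0.05.

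Further transition zone genes split 9 below and 7 above 0. At an unadjusted p under 0.05 in limma, 2 of 16 were lower (12.5%, against 3.63% of all features and 4.38% of all genes). These were Tmem107 (-0.63) and Tmem67 (-0.30), while Tmem237 was at 0.14. Further centriole and satellite genes split 11 and 11, and 2 of 22 were lower at that threshold (9.09%, against the same shares). These were Cby1 (-0.47), which helps basal bodies dock, and Ccp110 (-0.24), the partner of Cep97. The duplication gene Sass6 (0.19) followed by p-value. Hedgehog signalling, which runs through primary cilia, had 5 of 8 genes above 0 and 0 with an unadjusted p under 0.05 in limma. Its lowest p-values were those of Kif7 (0.19, SE 0.12), Sufu (-0.14, SE 0.094) and Evc (-0.21, SE 0.18).

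**Figure D3:**
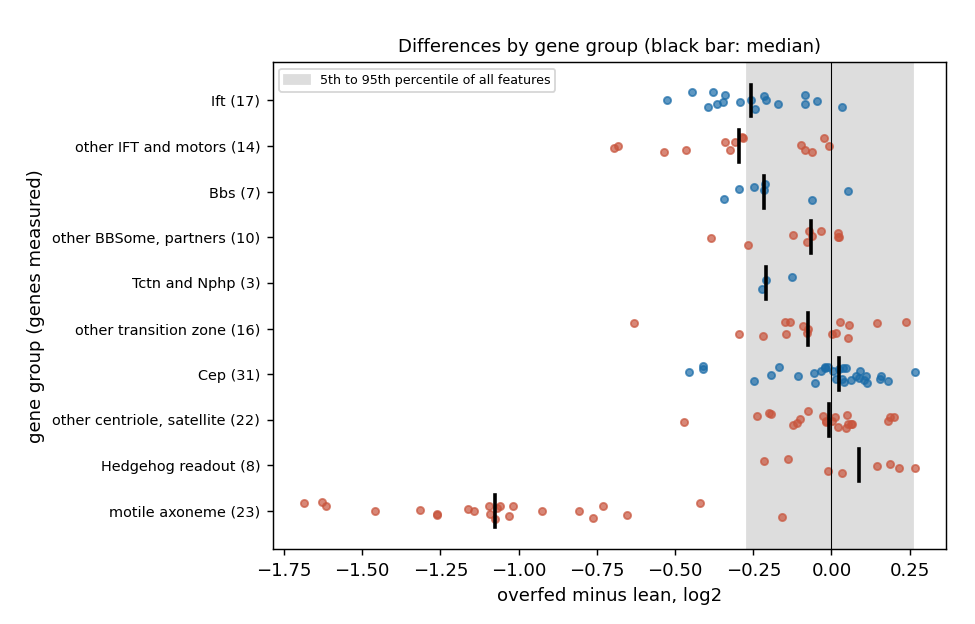
Differences (overfed minus lean, log2) of single genes by group, with the median as a black bar and the 5th to 95th percentile of all features (-0.27 to 0.26) in grey. Ift genes and the other IFT and motor genes have medians of -0.26 and -0.30, Cep genes are centred near 0 (0.03), and the motile axoneme genes lie farther left (median -1.08).

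Markers of motile cilia differed between the groups in the same direction as the Ift and Bbs genes, and by more. Foxj1, taken as reference, had 0.58, 0.21 and 0.95 in lean and -0.72, -0.21 and -0.50 in overfed pools, a difference of -1.06 (SE 0.21, 2.09-fold higher in lean, unadjusted p = 0.00139, limma adjusted p = 0.562). Of 23 motile axoneme genes, 23 were below 0 and 21 had an unadjusted p under 0.05 (91.3%, against 3.63% of all features and 4.38% of all genes). Their mean was 0.44, 0.17 and 0.61 in lean and -1.17, -0.14 and -0.66 in overfed pools. Ccdc40 (-0.65), Cfap126 (-1.09), Tppp3 (-1.26) and Tekt4 (-1.32) had the lowest p-values. Of 9 regulators of multiciliated cells, Foxj1 included, 8 were below 0 and 4 were lower at an unadjusted p under 0.05 (44.4%). Among these Deup1, which drives centriole amplification in multiciliated cells, was at -1.59. As in the Ift family, overfed pool 1 was the lowest pool for most axoneme genes, 22 of 23. The largest Ift difference, -0.52 in Ift70b, was smaller than that of Foxj1. In whole tissue, fewer cells of a type and less RNA per cell cannot be told apart.

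With the Foxj1 value of each pool as a covariate, 0 members were lower and 1 was higher at an unadjusted p under 0.05 in limma. The 1 was Cep126, at 0.61 (unadjusted p = 0.0326) in this fit and at -0.46 without the covariate, while Cep57l1 had an unadjusted p of 0.171. The Ift median was then 0.10 and the Bbs median 0.062. Foxj1 itself separates the groups, so its part and that of diet cannot be told apart in this fit. Secretory oviduct and epithelial markers had 13 of 13 genes below 0, led by Lcn2 (-1.60) and Muc1 (-0.97). Of the 13, 4 had an unadjusted p under 0.05 (30.8%, against 3.63% of all features and 4.38% of all genes). Means over the 13 genes were 0.49, -0.13 and 0.70 in lean and 0.05, -0.24 and -0.72 in overfed pools. By these means overfed pool 1, the lowest pool of most Ift genes, was the highest overfed pool. The same held for each gene of the list except Lcn2 and Krt18. In overfed pools Lcn2 had -0.94, -0.46 and -0.40, and Krt18 had -0.20, 0.15 and -0.68.

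**Figure D4:**
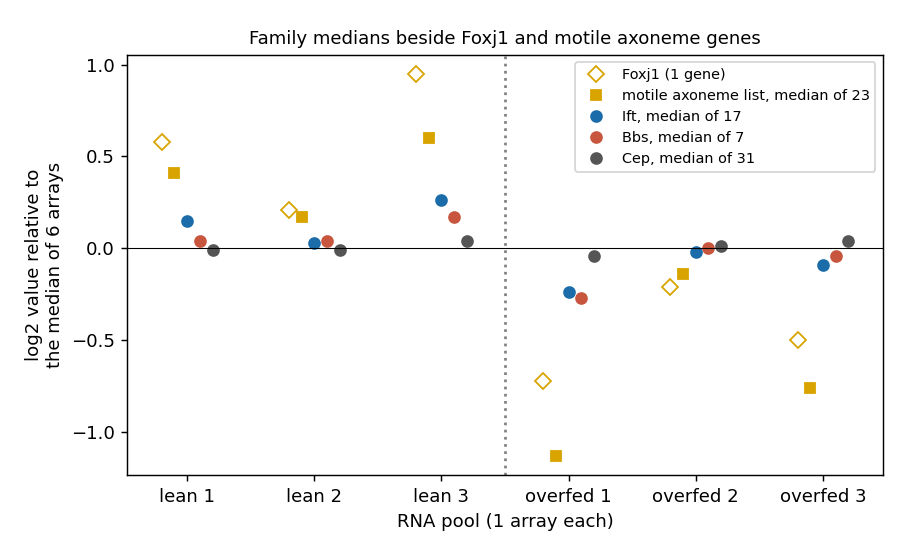
Log2 value relative to the median of the 6 arrays in each pool for Foxj1 and for the median of the motile axoneme list and of the Ift, Bbs and Cep genes. Foxj1 and the axoneme genes are above 0 in the lean pools and below 0 in the overfed pools. Ift and Bbs medians stay nearer 0, and Cep medians lie between -0.04 and 0.04.

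Markers of the other ovarian cells gave mixed values, and an unadjusted p was under 0.05 in 3 macrophage, 1 granulosa and 1 theca gene. These were higher in overfed pools, as were 3.39% of all features and 2.53% of all genes at that threshold. Macrophage markers had 6 of 6 genes above 0, led by Mrc1 (0.40) and C1qa (0.25), and means of -0.20 to -0.09 in lean and 0.06 to 0.26 in overfed pools. Granulosa markers had 5 of 7 above 0 (Inhba 0.60, Amh 0.33), with Nr5a2 at -0.28 and Foxl2 at -0.04. Theca markers had 2 of 2 above 0 (Cyp17a1 0.69, Insl3 0.10). Luteal markers had 6 of 8 below 0 (Star -0.16, Cyp11a1 -0.09). Endothelial markers had 4 of 5 below 0 (Pecam1 -0.12) and Vwf at 0.23. Oocyte markers had 3 of 5 slightly below 0 (Zp1 -0.09, Bmp15 -0.08, Zp2 -0.10), with Zp3 at 0.31 and Gdf9 at 0.13. Smooth muscle markers had 6 of 8 below 0 and a median of -0.04. Lmod1 (-0.32) and Acta2 (-0.37) were lowest, and the other 6 ran from -0.06 (Cnn1) to 0.19 (Actg2). Smooth muscle means were 0.38, -0.99 and 0.73 in lean and 0.86, -0.40 and -0.58 in overfed pools, so pools of 1 group differed by more than the groups did. The part of these cells in the members' values was not tested.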

How the data were processed

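The deposited table holds logarithms, taken here as log2 values, of 31099 probe sets on 6 arrays, relative to each probe set's median over the arrays, as the values show. The logarithm's base is not given in the sources used here. If the values are natural logarithms, the folds are too small. The submitters' processing notes name GCOS. How probe sets were summarized and scaled is likewise not given. Genes were named from the platform annotation and RefSeq (assembly GRCr8) through Entrez identifiers, found for 20758 of 20826 single-gene probe sets. After 57 control probe sets were left out, 14217 genes (means of their probe sets) and 10216 probe sets with several or no names made 24433 features. Group differences came from limma 3.58.1 in R 4.3.3 (lmFit, eBayes, two-sided, Benjamini-Hochberg over all features, threshold 0.05), after a test on simulated data. Probe sets were also fitted singly. Figures used matplotlib 3.10.9.

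Named were the members with an unadjusted p under 0.05, the 3 lowest and 3 highest differences of each family, the 3 lowest p-values of each other pathway list, 4 of the axoneme list and 2 of each other marker list. Other members, and further granulosa, oocyte and smooth muscle genes, were named after their values were seen. Members and lists were chosen with earlier results of these data known. Alternatives were 1 probe set per gene, no shared probe sets, array weights, Foxj1 as a covariate, the pool number as a block, quantile normalization, array median centring, a robust prior and leaving out each pool. Leaving out lean pool 3 and overfed pool 1 together was added after seeing the data.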

Additional observations from a re-analysis of the deposited data

How the results depend on the processing

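No member passed the adjusted threshold in limma under any of the 15 alternatives. The count of 14 lower members at an unadjusted p under 0.05 was 9 with array weights, 8 with the pool number as a block, 0 with Foxj1 as a covariate and 2 without lean pool 3 and overfed pool 1, and 4 to 17 with 1 pool left out. The count of 1 higher member was 0 to 1 with 1 pool left out and 2 without those 2 pools. Without them the Ift median was -0.13 and the Bbs median -0.085. With 1 pool left out the median over members was -0.13 to -0.051, over Ift genes -0.33 to -0.19, over Bbs genes -0.27 to -0.15 and over Cep genes -0.006 to 0.047. The labels used here do not say whether the pool numbers pair the samples. Correlations of same-numbered pools' deviations from their group means were 0.102, 0.157 and -0.311. Differently numbered pools were not compared, so these values cannot decide it.

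With Foxj1 as a covariate the medians turned to 0.086 over members, 0.10 over Ift and 0.062 over Bbs genes, and the Cep median was 0.096. In that fit the differences were Bbs1 0.14, Bbs5 0.16, Bbs9 0.062, Cep126 0.61, Cep128 0.20, Cep68 -0.04, Ift122 0.12, Ift140 0.41, Ift172 0.14, Ift27 0.044, Ift46 0.13, Ift57 0.037, Ift70a1 0.13, Ift70b 0.062, Ift80 0.16, Ift81 0.061, Ift88 0.10, Nphp4 0.22 and Tctn3 0.051, on the other side of 0 than without it. Its cause was not tested. Small differences also changed side: Bbs12 (-0.048) and Ift20 (-0.032) without overfed pool 2, Bbs4 without lean pool 2 (0.022) or overfed pool 1 (0.048; -0.14 to 0.048 over all single pools), and Ift80 without lean pool 1 (0.01), overfed pool 1 (0.043) or both lean pool 3 and overfed pool 1 (0.027; -0.094 to 0.043 over single pools). Of 435 values of 29 members under the alternatives, 409 kept their side of 0. Signal over background is unknown in these centred values, and 3 pools per group limit the precision.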
